A study of Mus musculus with 9 samples.

Results

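Collagen genes were taken as the rows of the count table whose symbol consists of Col, a number, the letter a and a number, and 43 of the 25860 genes in the table met that rule. They were grouped by the structure that the proteins are known to build: 11 fibrillar genes, 6 genes of the basement membrane network (type IV), 3 of the short-chain networks (types VIII and X), 9 of the fibril-associated collagens with interrupted triple helices (FACIT), 6 of the beaded filaments (type VI), 2 multiplexins (types XV and XVIII), 1 of the anchoring fibrils (Col7a1), 4 transmembrane collagens and Col28a1. Col26a1 carries the older symbol Emid2 in the table and so falls outside the rule, and no row of the table carries the symbol Col21a1. Of the 43 genes, 38 passed edgeR's filter on low counts and were tested, while Col4a3, Col4a4, Col6a5, Col6a6 and Col13a1 did not pass it.

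The libraries came from mouse calvarial cells, 5 of genotype IRE1KO and 4 of genotype WT, in a comparison that asks what loss of IRE1 does in cells of the osteoblast lineage. IRE1, the product of Ern1, sits in the membrane of the endoplasmic reticulum and signals when unfolded protein builds up there. Procollagen is folded in the same compartment. Every library of both groups was made from Osx1-Cre cells, which express Cre recombinase from the promoter of the osteoblast factor osterix. Each was a pool of cells from 3 to 5 newborn pups aged 2 to 4 days, grown in medium with 10% serum, sorted by flow cytometry and harvested at 90% confluence. The labels name neither the Ern1 allele nor what else the WT pups carried, and all libraries were prepared and sequenced in 1 batch. Each pool is called a biological replicate in the design text.

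Collagen molecules are chains wound around each other into a helix, and the chains are hydroxylated, folded and assembled in the endoplasmic reticulum before secretion. Fibrillar collagens are then trimmed by proteases outside the cell, laid side by side into fibrils and cross-linked, whereas type IV collagen forms the sheet of basement membranes and type VI forms thin beaded filaments around cells. Type I collagen is the main protein of bone matrix, type II of cartilage, and types III and V mix with type I in the fibrils of soft connective tissue.

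Total counts were 18784636 to 22028075 per library. Values are counts scaled to the library's total count, in the usual CPM unit. The detection floor was taken as 3 counts, which correspond to 0.136 to 0.16 CPM. Ern1 was at 55.4, 49.1, 54.8, 52.3 and 51.97 CPM in IRE1KO libraries 1 to 5, against 53.7, 49.8, 45.01 and 41.5 CPM in WT libraries 1 to 4, with a log2 fold change of 0.17 ± 0.0764 SE (edgeR adjusted p = 0.306). It was not lower in the libraries labelled IRE1KO. Because the deleted stretch is not named in the labels, counts over the whole gene do not check the genotype, and every direction below follows the labels. WT libraries differed among themselves more than IRE1KO libraries did, with the coefficient of variation larger in WT for 33 of the 38 collagen genes (86.8%) and for 82.7% of all genes tested. Of 9 osteoblast markers, 6 were tested, 5 had a log2 fold change below 0, with a list median of -0.50, and none passed. The osteoblast factor Runx2 was at 62.8 to 68.9 CPM in IRE1KO and 60.7 to 75.1 CPM in WT. Sp7, the osterix gene, was at 15.4 to 21.2 CPM in IRE1KO and 13.4 to 24.97 CPM in WT. Bglap (osteocalcin), which marks mature osteoblasts, was at or near 0 in every library.

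Collagen genes together took 6.27, 6.39, 5.94, 6.43 and 6.38% of all counts in IRE1KO libraries 1 to 5, against 4.85, 4.53, 5.19 and 8.13% in WT libraries 1 to 4. The IRE1KO libraries lay within a narrow band above 3 of the WT libraries and below WT library 4, which was the highest of the 9, so the groups overlap. The means were 6.28% ± 0.201 (SD, n = 5) in IRE1KO and 5.67% ± 1.66 (SD, n = 4) in WT. Fibrillar genes made up most of this, at 5.28, 5.39, 4.97, 5.44 and 5.39% of all counts in the IRE1KO libraries and 3.81, 3.605, 4.28 and 7.03% in the WT libraries, and ranked the libraries of each group alike.

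The other classes were smaller and did not all follow the fibrillar genes across WT libraries. FACIT genes took 0.377, 0.385, 0.364, 0.383 and 0.361% of counts in IRE1KO and 0.372, 0.338, 0.311 and 0.4003% in WT. Beaded filament genes took 0.297, 0.308, 0.283, 0.322 and 0.3096% in IRE1KO and 0.208, 0.2197, 0.293 and 0.436% in WT. Both classes were highest in WT library 4. The basement membrane network took 0.213, 0.218, 0.236, 0.179 and 0.236% in IRE1KO and 0.351, 0.295, 0.229 and 0.178% in WT, with WT library 1 highest and WT library 4 lowest. Short-chain network genes took 0.0587, 0.055003, 0.0486, 0.0636 and 0.0494% in IRE1KO and 0.0574, 0.0419, 0.0398 and 0.0516% in WT. Multiplexin genes took 0.0106, 0.0103, 0.0113, 0.0111 and 0.0118% in IRE1KO, inside the wider WT values of 0.00838, 0.0155, 0.0208 and 0.0278%. In each of these classes the groups overlapped. As a share of collagen counts alone the fibrillar genes held 84.3, 84.3, 83.7, 84.7 and 84.5% in IRE1KO and 78.7, 79.5, 82.5 and 86.4% in WT.

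**Figure D1:**
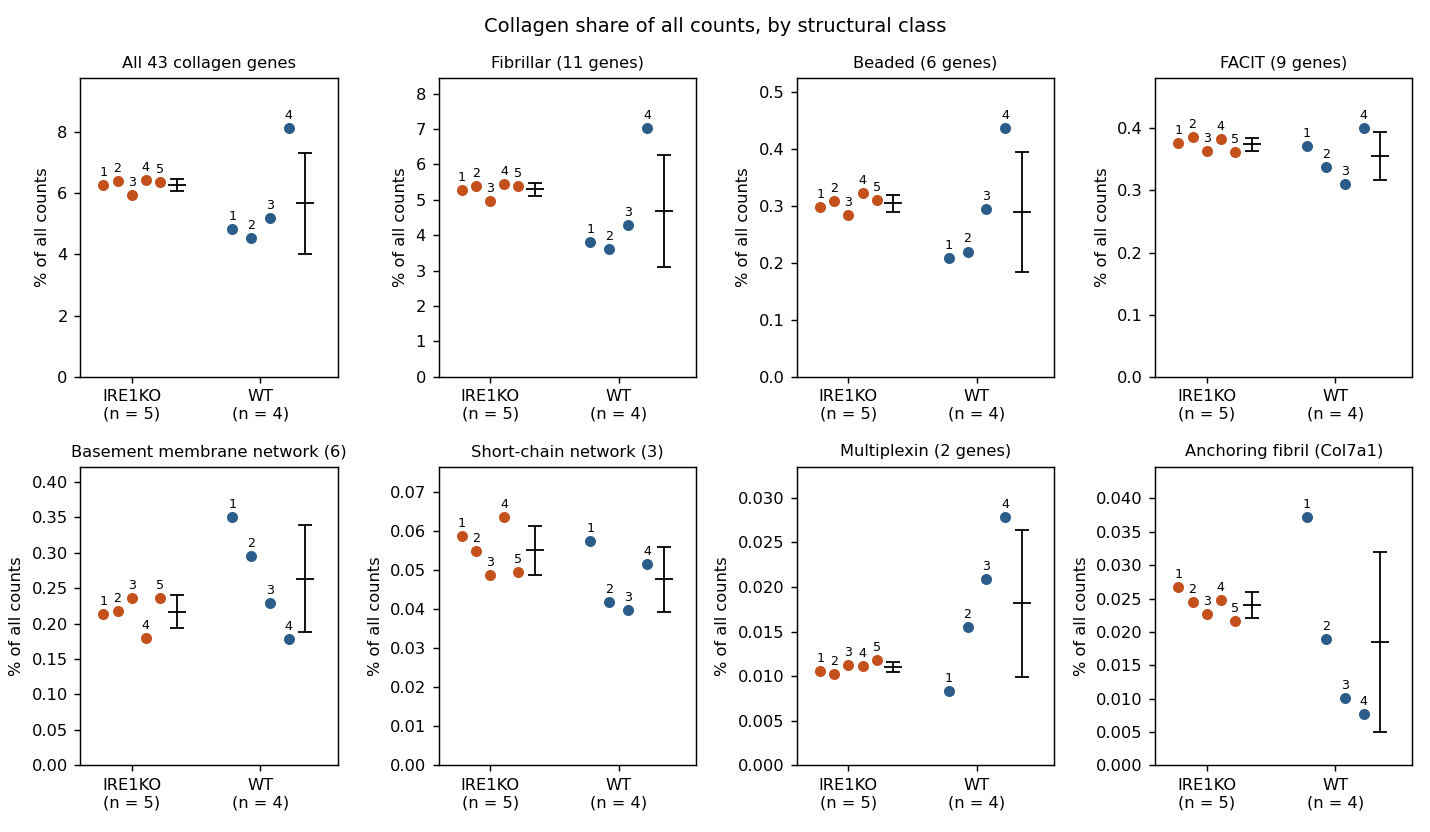
Share of all counts (%, linear axis from 0) taken by collagen genes and by 7 structural classes, 1 point per library with its number, IRE1KO in orange (n = 5) and WT in blue (n = 4), and mean ± SD to the right of each group. IRE1KO libraries lie at 5.94% to 6.43% for all collagen genes and WT libraries at 4.53% to 8.13%, with WT library 4 highest for fibrillar, beaded and FACIT genes and lowest for the basement membrane network.

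Gene by gene, 1 of 38 collagen genes changed between the genotypes at an adjusted p under 0.05 (edgeR quasi-likelihood test, Benjamini-Hochberg adjustment over 13712 genes): Col15a1 fell, and none rose. Of all genes tested 0.634% changed, 0.255% upward and 0.379% downward. At an unadjusted p under 0.05 there were 6 collagen genes, Col9a1, Col5a1, Col15a1, Col9a2, Col28a1 and Col4a6, beside 16.5% of all genes. The log2 fold change was above 0 for 17 and below 0 for 21 of the 38, with a median of -0.11 against -0.0050 over all genes. Scaled by library size alone, where the median over all genes was -0.026, 15 were above 0. Without WT library 4, 22 of the 38 were above 0 and the median was 0.10, and without WT library 2, 11 were above 0, with a median of -0.16. DESeq2 called 2 of the 41 collagen genes it tested, among 3.77% of all genes: Col5a1 rose (1.48% of all genes) and Col15a1 fell (2.29%). With limma voom none was called, among 0.117% of all genes. None was called either with scaling by library size alone (0.335% of all genes) or with no filter on low counts (0.253%).

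Groups did not overlap in CPM for 3 collagen genes, against 6.6% of all genes tested: Col5a1 was higher in every IRE1KO library (2.75% of all genes), and Col15a1 and Col10a1 were lower in every IRE1KO library (3.85% of all genes).

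The calls depended on which WT libraries were in the fit. Without WT library 4, 6 collagen genes were called, among 2.9% of all genes: the fibrillar Col1a1, Col1a2, Col3a1 and Col5a1 rose (1.1% of all genes rose), and Col15a1 and Col4a6 fell (1.8% of all genes fell). Without WT library 1, 4 were called, among 8.63% of all genes: Col8a1 rose (3.37% of all genes), and Col15a1, Col18a1 and Col28a1 fell (5.25%). Without any 1 of the other 7 libraries none was called, with 2 to 8 genes called in the whole table. Leaving out both WT library 1 and WT library 4, a choice made after the values were seen and one that removes the most extreme WT libraries, 10 were called, among 10.6% of all genes: Col1a1, Col1a2, Col3a1, Col5a1, Col5a2, Col27a1, Col12a1 and Col8a1 rose (4.24% of all genes), and Col15a1 and Col4a6 fell (6.39%).

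**Figure D2:**
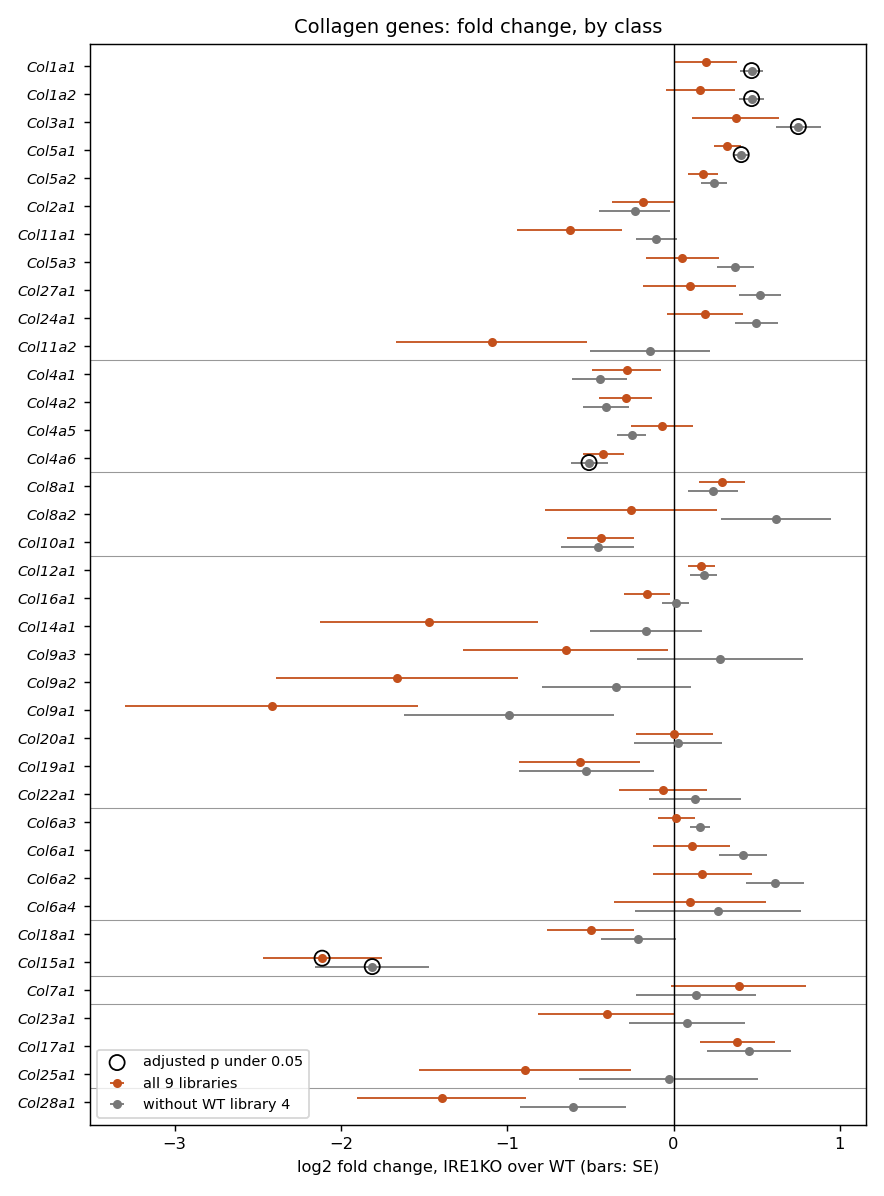
Log2 fold change, IRE1KO over WT, of the 38 tested collagen genes (x axis; bars are SE), in class order from fibrillar at the top, with all 9 libraries in orange and without WT library 4 in grey; rings mark an adjusted p under 0.05. With all libraries only Col15a1 is ringed, at -2.11, and without WT library 4 so are Col1a1, Col1a2, Col3a1, Col5a1, Col4a6 and Col15a1.

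Among fibrillar genes, 8 of 11 had a log2 fold change above 0, with a class median of 0.16, and none passed the test with all 9 libraries. The median was 0.41 without WT library 4 (8 above 0), 0.064 without WT library 1 (7 above 0), 0.035 without WT library 2 (6 above 0) and 0.097 without IRE1KO library 2 (8 above 0). Col1a1 (chr11:94936224-94953042; coordinates are from GENCODE on GRCm38, the mm10 build), which encodes the alpha1 chain of type I collagen and had the highest mean count of all genes in the table, was at 23035, 22349, 21966, 23817 and 24534 CPM in IRE1KO libraries 1 to 5 and 16722, 15704, 18588 and 31098 CPM in WT libraries 1 to 4. Its partner chain Col1a2 (chr6:4504814-4541544) was at 15084, 15532, 14062, 15871 and 15063 CPM in IRE1KO and 10727, 10141, 12476 and 21526 CPM in WT. For both, every IRE1KO library lay above WT libraries 1 to 3 and below WT library 4. The log2 fold changes were 0.19 ± 0.19 SE (edgeR adjusted p = 0.651) for Col1a1 and 0.16 ± 0.21 SE (edgeR adjusted p = 0.737) for Col1a2. Without WT library 4 both genes rose, at 0.47 ± 0.0708 SE (edgeR adjusted p = 0.0177) for Col1a1 and 0.47 ± 0.0758 SE (edgeR adjusted p = 0.0201) for Col1a2.

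Type I collagen is a trimer with more alpha1 than alpha2 chains. The ratio of Col1a1 to Col1a2 counts was 1.53, 1.44, 1.56, 1.501 and 1.63 in IRE1KO libraries and 1.56, 1.55, 1.49 and 1.44 in WT libraries, so that it stayed within a narrow range while the levels of both genes moved widely between WT libraries. Per kb of transcript the ratio depended on the length used, at 2.72 to 3.08 in IRE1KO and 2.74 to 2.95 in WT with the union of annotated exons, and at 1.298 to 1.47 in IRE1KO and 1.303 to 1.41 in WT with the longest transcript.

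Col3a1 (chr1:45311538-45349706), the chain of type III collagen, which is a homotrimer, was at 7307, 9060.2, 6306, 7341 and 6707 CPM in IRE1KO and 4019, 3994, 5325 and 9669.9 CPM in WT. It too was above WT libraries 1 to 3 in every IRE1KO library, and below WT library 4. The log2 fold change was 0.37 ± 0.26 SE (edgeR adjusted p = 0.511) with all libraries and 0.75 ± 0.14 SE (edgeR adjusted p = 0.0302) without WT library 4. Col5a2, which lies tail to tail with Col3a1 at a distance of 24.6 kb on chromosome 1, was at 2404, 2487, 2392, 2366 and 2348 CPM in IRE1KO and 2343, 1947, 1889 and 2431 CPM in WT, a smaller spread than that of its neighbour. Its log2 fold change was 0.18 ± 0.0895 SE (edgeR adjusted p = 0.356).

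Col5a1 (chr2:27886425-28039514), the alpha1 chain of type V collagen, which nucleates type I fibrils and limits their width, was the fibrillar gene whose groups did not overlap. It was at 3325, 3375, 3336, 3209 and 3562 CPM in IRE1KO libraries and 2609, 2541, 2585 and 3157 CPM in WT libraries. The lowest IRE1KO library exceeded WT library 4 by little and the other WT libraries by more. The log2 fold change was 0.32 ± 0.0791 SE (edgeR adjusted p = 0.107), and it did not pass. In DESeq2 it rose, at 0.33 ± 0.07797 SE (DESeq2 adjusted p = 0.00234), and edgeR without WT library 4 gave 0.41 ± 0.0499 SE (edgeR adjusted p = 0.00857). Its exons overlap 2 genes on the opposite strand over 212 bases. The strand setting of the counting is not given in the sources used here. The ratio of Col5a1 to Col5a2 counts was 1.36 to 1.52 in IRE1KO and 1.11 to 1.37 in WT.

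The cartilage-type fibrillar genes behaved differently from one another. Col2a1 (chr15:97975602-98004695), the chain of type II collagen, was at 1210.2, 607, 1162, 1267 and 1167 CPM in IRE1KO and 1287, 1283, 1312 and 1099 CPM in WT. IRE1KO library 2 was far below the other 4 IRE1KO libraries, and WT library 4 was the lowest WT library. Of the 8 tested chondrocyte markers, Acan, Comp, Hapln1 and Lect1 were also lowest in IRE1KO library 2 among IRE1KO libraries, whereas Sox9, Matn3 and Matn4 were lowest in library 3 and Prg4 in library 5; these were compared after their values were seen. Col11a1, whose chain joins type II in cartilage fibrils and can pair with type V chains elsewhere, was at 361, 344, 346, 394 and 363 CPM in IRE1KO and 332, 347, 508 and 1073 CPM in WT, where library 4 was the highest. Col11a2 was low, at 2.41, 1.26, 1.33, 3.68 and 1.8001 CPM in IRE1KO and 2.68, 1.67, 2.75 and 11.1 CPM in WT, again with WT library 4 highest. The log2 fold changes were -0.18 ± 0.19 SE (edgeR adjusted p = 0.662) for Col2a1, -0.62 ± 0.32 SE (edgeR adjusted p = 0.356) for Col11a1 and -1.09 ± 0.57 SE (edgeR adjusted p = 0.373) for Col11a2, and none passed. The ratio of Col11a1 to Col5a1 counts did not overlap between groups, at 0.108, 0.102, 0.104, 0.123 and 0.102 in IRE1KO libraries and 0.127, 0.136, 0.197 and 0.3399 in WT libraries. Col5a1 on its own did not overlap either. Of the chain ratios examined, only this ratio and that of Col9a1 to Col9a3 did not overlap. How often ratios of other gene pairs separate the groups was not computed.

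Of the remaining fibrillar genes, Col5a3 was at 86.2 to 95.4 CPM in IRE1KO and 61.1 to 142 CPM in WT. Col27a1 was at 22.6 to 25.97 CPM in IRE1KO and 13.4 to 39.4 CPM in WT. Col24a1 was at 11.997 to 16.9 CPM in IRE1KO and 8.49 to 19.2 CPM in WT. All 3 had their highest value in WT library 4, and their log2 fold changes lay between 0.053 and 0.19.

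Beaded filament genes had log2 fold changes above 0 in 4 of 4 tested members, with a class median of 0.10, and none passed. This direction rested on single WT libraries: without WT library 2, 0 of 4 were above 0 (median -0.033), without WT library 1, 1 of 4 (median -0.020), and without WT library 4, 4 of 4 (median 0.34). Without IRE1KO library 4, 3 of 4 were above 0 (median 0.050), and without IRE1KO library 3, 4 of 4 (median 0.19). Scaled by library size alone, Col6a3 was at -0.0033 and the other 3 stayed above 0. The chains of type VI collagen are encoded by Col6a1 and Col6a2, 85.2 kb apart on chromosome 10, and by Col6a3 on chromosome 1. Col6a1 was at 1053, 1112, 943, 1176 and 1043 CPM in IRE1KO and 641, 751, 1050.1 and 1571 CPM in WT. Col6a2 was at 834, 891, 737, 959 and 844 CPM in IRE1KO and 458, 477, 776 and 1360.0 CPM in WT. Col6a3 was at 1084, 1078, 1151, 1078 and 1208 CPM in IRE1KO and 984, 968, 1107 and 1429 CPM in WT. All 3 were highest in WT library 4 among WT libraries, and the coefficient of variation over WT libraries was 54.8% for Col6a2, 41.5% for Col6a1 and 19.1% for Col6a3. Within libraries the ratio of Col6a2 to Col6a3 counts was 0.641 to 0.8896 in IRE1KO and 0.466 to 0.952 in WT. The ratio of Col6a1 to Col6a3 was 0.819 to 1.09 in IRE1KO and 0.651 to 1.099 in WT. The log2 fold changes were 0.11 ± 0.23 SE (edgeR adjusted p = 0.853) for Col6a1, 0.17 ± 0.30 SE (edgeR adjusted p = 0.809) for Col6a2 and 0.02 ± 0.11 SE (edgeR adjusted p = 0.959) for Col6a3. Col6a4 had 4 to 28 counts per library, and Col6a5 and Col6a6 had at most 3 and 4.

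FACIT genes differed widely in level. Among WT libraries Col16a1, Col14a1, Col22a1 and the type IX genes were highest in library 4, and Col12a1, Col19a1 and Col20a1 in library 1. Col12a1, whose product binds type I fibrils, was the most abundant, at 3379, 3481, 3277, 3387 and 3235 CPM in IRE1KO and 3383, 2997, 2632 and 3091 CPM in WT, with a log2 fold change of 0.17 ± 0.0807 SE (edgeR adjusted p = 0.334). Col16a1 was at 336, 321, 313, 354 and 325 CPM in IRE1KO and 278, 346, 375 and 496 CPM in WT, with a log2 fold change of -0.16 ± 0.14 SE (edgeR adjusted p = 0.598). Both varied little among the IRE1KO libraries.

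Col14a1, which also coats type I fibrils, was at 36.7, 43.6, 37.5, 67.5 and 42.96 CPM in IRE1KO and 42.1, 30.8, 83.7 and 356 CPM in WT. WT library 4 was far above the other WT libraries, and IRE1KO library 4 was the highest of its group. Col14a1 had a log2 fold change of -1.47 ± 0.66 SE (edgeR adjusted p = 0.304) with all libraries and -0.16 ± 0.34 SE (edgeR adjusted p = 0.835) without WT library 4.

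The 3 chains of type IX collagen, which decorates type II fibrils in cartilage, were low and shared this pattern. Col9a3 was at 12.6, 5.304, 4.898, 18.5 and 5.54 CPM in IRE1KO and 8.08, 5.58, 10.01 and 36.01 CPM in WT. Col9a2 was at 1.59, 0.606, 1.49, 2.497 and 1.8001 CPM in IRE1KO and 1.77, 1.04, 3.42 and 14.4 CPM in WT. Col9a1, the scarcest, was at 0.337, 0.202, 0.106, 0.999 and 0.284 CPM in IRE1KO and 0.707, 0.365, 1.35 and 6.22 CPM in WT. Each was highest in WT library 4, and several IRE1KO values of Col9a1 lay at or near the detection floor. The log2 fold changes were -0.65 ± 0.62 SE (edgeR adjusted p = 0.634) for Col9a3, -1.66 ± 0.73 SE (edgeR adjusted p = 0.295) for Col9a2 and -2.42 ± 0.88 SE (edgeR adjusted p = 0.225) for Col9a1, and none passed. Without WT library 4 they were 0.28 ± 0.50 SE (edgeR adjusted p = 0.806) for Col9a3, where the sign turned, -0.34 ± 0.45 SE (edgeR adjusted p = 0.721) for Col9a2 and -0.99 ± 0.63 SE (edgeR adjusted p = 0.424) for Col9a1. The ratio of Col9a1 to Col9a3 counts did not overlap, at 0.0217 to 0.0539 in IRE1KO and 0.0654 to 0.173 in WT. It rests on 2 to 22 Col9a1 counts per IRE1KO library and 7 to 119 per WT library. The ratio of Col9a1 to Col9a2 counts overlapped, and the separation of other gene pairs was not computed. Col19a1, Col20a1 and Col22a1 had 8 to 33 counts in every library. Over the class, 7 of 9 log2 fold changes were below 0 with a median of -0.57 with all libraries (8 of 9 when scaled by library size alone, with Col20a1 at -0.015), against 4 of 9 and a median of 0.013 without WT library 4, a median of -0.27 without WT library 1 and one of -0.36 without IRE1KO library 4, where 8 were tested.

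**Figure D3:**
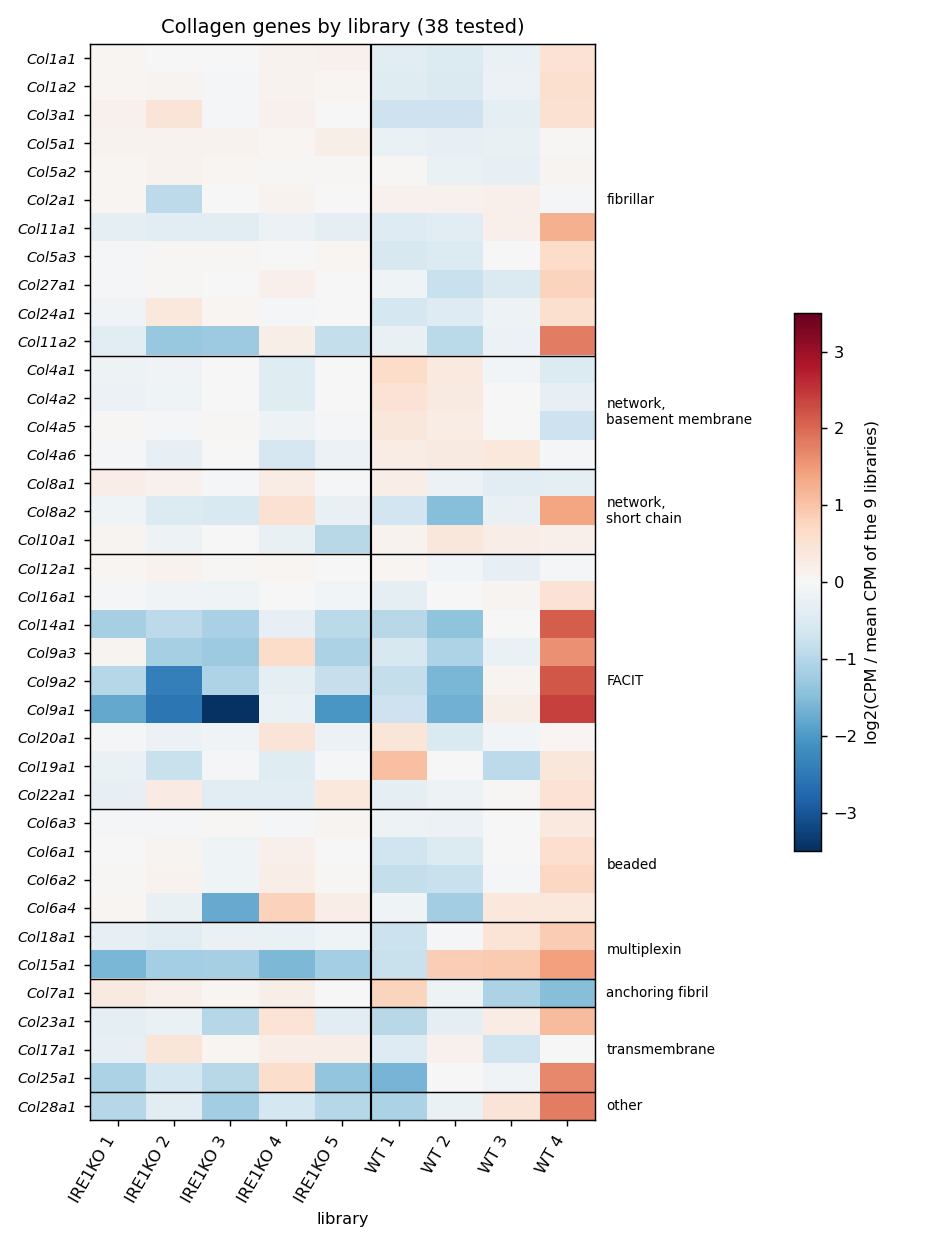
Level of the 38 tested collagen genes (rows, in class order) in the 9 libraries (columns, IRE1KO left of WT), as log2 of CPM over the gene's mean CPM in all 9 libraries; red is above and blue below the mean, on a scale of -3.5 to 3.5. WT library 4 is the highest of the 9 libraries for 23 genes, and type IV genes and Col7a1 run the other way.

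Type IV collagen is built from 6 chains encoded in 3 pairs of genes that lie head to head. The bases at the start sites are shown for these pairs, and whether they bear on the levels of the genes was not tested. Across WT libraries Col4a1, Col4a2 and Col4a5 followed one another, and Col4a6 did so only in part. Among IRE1KO libraries Col4a5 was highest in library 1, Col4a1 in library 3 and Col4a2 in library 5. Bases are from RefSeq on GRCm38.p6, and capitals mark the GC box GGGCGG or its reverse complement CCGCCC. The start sites of Col4a1 and Col4a2 overlap by 22 bases (chr8:11312805-11312826, plus strand). Those of Col4a3 and Col4a4 are 71 bases apart (chr1:82586850-82586920, minus strand). Those of Col4a5 and Col4a6 are 1342 bases apart, so that the 100 bases before each start are given (chrX:141475319-141475418, plus strand, and chrX:141474077-141474176, minus strand).
Col4a1 and Col4a2: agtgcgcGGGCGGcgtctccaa
Col4a3 and Col4a4: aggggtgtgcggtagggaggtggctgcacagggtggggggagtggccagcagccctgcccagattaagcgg
Col4a5: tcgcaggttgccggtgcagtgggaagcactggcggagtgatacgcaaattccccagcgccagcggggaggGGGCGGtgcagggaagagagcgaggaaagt
Col4a6: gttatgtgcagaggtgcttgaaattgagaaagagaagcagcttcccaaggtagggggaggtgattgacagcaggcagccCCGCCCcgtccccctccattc
Over windows of 300 bases around the start (250 before and 50 after, both strands), the GC box was found for 22 of the 35 collagen genes with a window (62.9%) and for 38.2% of all genes listed, CCAAT for 13 (37.1%) and 41.1%, and TATAAA for 5 (14.3%) and 15.7%. The windows of Col4a1, Col4a2, Col4a5 and Col4a6 held the GC box.

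All 4 tested type IV genes had a log2 fold change below 0, with a median of -0.29, and none passed with all libraries. Without WT library 1 the median was -0.10 and Col4a5 was above 0, and without WT library 2 it was -0.24, again with Col4a5 above 0. Col4a1 (chr8:11198423-11312826) was at 1010.3, 1046, 1127, 843 and 1121 CPM in IRE1KO libraries and 1774, 1426, 1059.6 and 811 CPM in WT libraries. Col4a2, whose chain assembles with that of Col4a1 in most basement membranes, was at 835, 868, 953, 709 and 973 CPM in IRE1KO and 1369.7, 1188, 946 and 794 CPM in WT. Both were highest in WT library 1 and lowest in WT library 4 among WT libraries, and lowest in IRE1KO library 4 among IRE1KO libraries. The ratio of Col4a1 to Col4a2 counts was 1.21, 1.204, 1.18, 1.19 and 1.15 in IRE1KO and 1.295, 1.201, 1.12 and 1.02 in WT. The log2 fold changes were -0.28 ± 0.21 SE (edgeR adjusted p = 0.525) for Col4a1 and -0.29 ± 0.16 SE (edgeR adjusted p = 0.399) for Col4a2. Without WT library 1 they were -0.06 ± 0.17 SE (edgeR adjusted p = 0.843) for Col4a1 and -0.14 ± 0.14 SE (edgeR adjusted p = 0.551) for Col4a2.

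The X-linked pair differed in level. Col4a5 was at 271, 255, 268, 233 and 252 CPM in IRE1KO and 345, 318, 265 and 160.4 CPM in WT. Col4a6 was at 12.6, 10.96, 13.2, 8.898 and 11.5 CPM in IRE1KO and 15.9, 16.5, 17.2 and 12.6 CPM in WT. Col4a5 followed Col4a1 across WT libraries, whereas Col4a6 was above every IRE1KO library in WT libraries 1 to 3 and within the IRE1KO range in WT library 4. The log2 fold changes were -0.07 ± 0.19 SE (edgeR adjusted p = 0.889) for Col4a5 and -0.42 ± 0.12 SE (edgeR adjusted p = 0.1605) for Col4a6. Without WT library 4 Col4a6 fell, at -0.51 ± 0.11 SE (edgeR adjusted p = 0.0459). Col4a3 and Col4a4, which build the basement membrane of the kidney glomerulus, had at most 9 and 6 counts in any library.

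**Figure D4:**
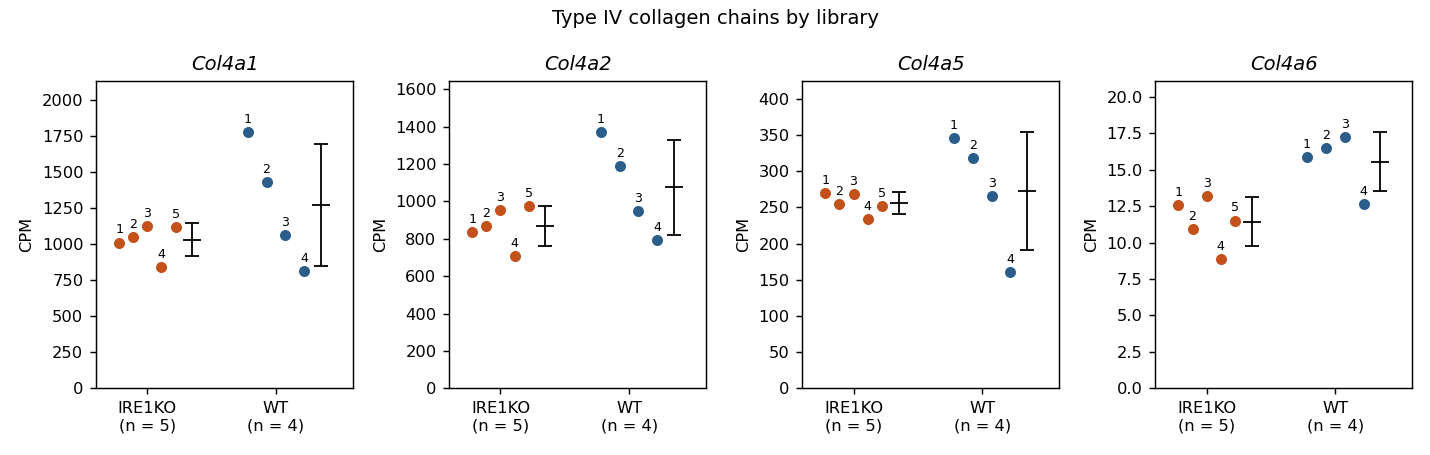
CPM (linear axes from 0) of the 4 tested type IV collagen genes in each library, IRE1KO in orange (n = 5) and WT in blue (n = 4), numbered, with mean ± SD to the right of each group. Col4a1, Col4a2 and Col4a5 are highest in WT library 1 and lowest in WT library 4 among WT libraries, and Col4a6 is above the IRE1KO range in 3 of 4 WT libraries.

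The short-chain network genes gave 1 log2 fold change above 0 and 2 below, with a median of -0.26, and without WT library 4 they gave 2 above 0, with a median of 0.24. Col8a1, a chain of the type VIII network found around vessels and in the cornea, was at 532, 506, 444, 550.0 and 444 CPM in IRE1KO and 535, 395, 346 and 360.3 CPM in WT. The log2 fold change was 0.29 ± 0.14 SE (edgeR adjusted p = 0.324), and without WT library 1, the highest WT library, Col8a1 rose, at 0.46 ± 0.0886 SE (edgeR adjusted p = 0.0218). Its partner Col8a2 was at 52.8, 42.5, 40.5, 84.6 and 49.3 CPM in IRE1KO and 36.8, 21.01, 49.7 and 154 CPM in WT, with library 4 highest in both groups. Its log2 fold change of -0.26 ± 0.52 SE (edgeR adjusted p = 0.8395) became 0.62 ± 0.33 SE (edgeR adjusted p = 0.346) without WT library 4. The count ratio of Col8a1 to Col8a2 was 6.503 to 11.9 in IRE1KO and 2.34 to 18.8 in WT. Col10a1, the marker of hypertrophic chondrocytes, was low and lower in every IRE1KO library, at 2.26, 1.87, 2.13, 1.77 and 1.09 CPM, than in the WT libraries, at 2.32, 2.81, 2.49 and 2.404 CPM. These values come from 47, 37, 40, 39 and 23 counts in IRE1KO and 46, 54, 48 and 46 counts in WT. IRE1KO library 1 thus lay only just below WT library 1. The log2 fold change was -0.44 ± 0.20 SE (edgeR adjusted p = 0.313).

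Multiplexins carry heparan or chondroitin sulfate chains and sit at basement membranes. Col15a1 (chr4:47208161-47313167) fell in IRE1KO and was the 1 collagen gene called with all 9 libraries. It was at 6.46, 8.54, 8.84, 6.63 and 8.62 CPM in IRE1KO libraries 1 to 5, against 11.5, 35.8, 36.9 and 53.4 CPM in WT libraries 1 to 4. WT library 1 lay just above the IRE1KO values, and the other 3 WT libraries were well above both. The log2 fold change was -2.11 ± 0.36 SE (edgeR adjusted p = 0.0475), or -2.40 ± 0.17 SE (edgeR adjusted p = 0.00124) without WT library 1 and -1.81 ± 0.34 SE (edgeR adjusted p = 0.0392) without WT library 4. Without any 1 of the other 7 libraries the adjusted p in the same test was between 0.119 and 0.146. As a share of collagen counts, Col15a1 took 0.0103, 0.0134, 0.0149, 0.0103 and 0.0135% in IRE1KO and 0.0237, 0.07897, 0.0711 and 0.0657% in WT.

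Col18a1, whose C-terminal fragment is endostatin, was at 99.8, 94.3, 104, 104 and 109.8 CPM in IRE1KO and 72.3, 119, 172 and 225 CPM in WT. WT library 1 was below the IRE1KO range and the other 3 WT libraries were above it. Col18a1 had a log2 fold change of -0.50 ± 0.26 SE (edgeR adjusted p = 0.374), and without WT library 1 it fell, at -0.72 ± 0.17 SE (edgeR adjusted p = 0.0441).

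Col7a1, which forms the anchoring fibrils of skin, was at 267, 244, 227, 248 and 216 CPM in IRE1KO and 372, 189.9, 100.4 and 76.3 CPM in WT. The coefficient of variation was 8.24% over IRE1KO libraries and 72.7% over WT libraries, with WT library 1 above and WT libraries 2, 3 and 4 below the IRE1KO values. Its log2 fold change was 0.39 ± 0.41 SE (edgeR adjusted p = 0.6602), and without WT library 1 it was 1.01 ± 0.26 SE (edgeR adjusted p = 0.0548). Of 5 epithelial and keratinocyte markers none passed the filter, and their summed level was 0 to 0.726 CPM in IRE1KO and 0.104 to 1.05 CPM in WT, with Epcam and Krt14 at 3 counts or fewer in every library.

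The transmembrane collagens were low. Col23a1 was at 5.59, 5.86, 3.46, 9.67 and 5.26 CPM in IRE1KO and 3.49, 5.58, 8.296 and 14.8 CPM in WT, with a log2 fold change of -0.40 ± 0.41 SE (edgeR adjusted p = 0.658). Col17a1, a hemidesmosome protein, had 20 to 31 counts in IRE1KO and 14 to 25 in WT, with a log2 fold change of 0.38 ± 0.23 SE (edgeR adjusted p = 0.425). Col25a1 had 6, 8, 6, 21 and 5 counts in IRE1KO and 4, 12, 11 and 38 counts in WT, with library 4 highest in both and a log2 fold change of -0.89 ± 0.64 SE (edgeR adjusted p = 0.516). Col13a1, which did not pass the filter, had 6, 5, 5, 8 and 3 counts in IRE1KO libraries and 3, 0, 0 and 0 counts in WT libraries, at or under the floor of 3 counts in every WT library and above it in 4 of 5 IRE1KO libraries. Col28a1, which is expressed by glia of peripheral nerve in mice, was at 2.55, 3.99, 2.18, 3.36 and 2.56 CPM in IRE1KO and 2.37, 4.38, 6.95 and 17.6 CPM in WT. Its log2 fold change was -1.39 ± 0.51 SE (edgeR adjusted p = 0.225), and Col28a1 fell without WT library 1, at -1.69 ± 0.43 SE (edgeR adjusted p = 0.0489).

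Between genes, levels were compared as CPM per kb of annotated exons. Col1a1 led in both groups, with 3526 ± 160.1 CPM per kb in IRE1KO (SD, n = 5) and 3128 ± 1089 in WT (SD, n = 4). Col1a2 followed with 1217 ± 54.8 in IRE1KO and 1104 ± 426 in WT, and Col3a1 with 748 ± 107 in IRE1KO and 586 ± 274 in WT. Col5a1 had 396 ± 15.1 CPM per kb in IRE1KO and 321 ± 34.2 in WT, Col2a1 had 117 ± 29.1 in IRE1KO and 135 ± 10.6 in WT, and Col15a1 had 1.23 ± 0.184 in IRE1KO and 5.42 ± 2.72 in WT. With the longest transcript as length, the same 3 genes led in both groups.

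WT library 4 was the highest WT library for 26 of the 38 tested collagen genes (68.4%, against 35.1% of all genes tested) and the highest of all 9 libraries for 23 (60.5%, against 29.2%). This held for 10 of 11 fibrillar and 4 of 4 beaded genes as the highest WT library, and for 0 of 4 type IV genes. WT library 1 was the highest WT library for 8 collagen genes (21.1%, against 24.5% of all genes), among them 3 of the 4 type IV genes, Col8a1 and Col7a1.

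Markers of other cell types also differed between WT libraries. Of 8 Schwann cell and glial markers, 6 were tested, and all 6 had a log2 fold change below 0. Ngfr, the p75 neurotrophin receptor, fell, at -3.44 ± 0.56 SE (edgeR adjusted p = 0.0452). Their summed level was 14.02, 18.4, 13.3, 12.5 and 13.97 CPM in IRE1KO and 20.8, 55.5, 63.5 and 86.9 CPM in WT, none being at 0 throughout. Among WT libraries this sum was lowest in library 1 and highest in library 4, as Col15a1 and Col28a1 were. The same extremes held for Col5a3, Col11a1, Col24a1, Col16a1, Col22a1, Col6a1, Col6a2, Col18a1, Col23a1 and Col25a1. DESeq2 called 7 of the 8 markers, beside 3.77% of all genes, and limma voom none, beside 0.117%. Of 11 chondrocyte markers, 8 were tested, 7 had a log2 fold change below 0 and none passed in edgeR. In edgeR 3 were at an unadjusted p under 0.05, beside 16.5% of all genes. DESeq2 called 2, beside 3.77% of all genes, and limma voom 0. They summed to 149, 119.5, 121, 171 and 140.1 CPM in IRE1KO and 133, 150.1, 197 and 384 CPM in WT, with Matn1 and Chad at 3 counts or fewer in every library. Their highest library, WT library 4, is also that of the type IX, Col11a1, Col11a2 and Col14a1 values, but not of Col2a1. It was the highest of all 9 libraries for 23 of the 38 tested collagen genes.

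Of 9 smooth muscle and pericyte markers, all were tested and none passed in edgeR (2 unadjusted, 1 in DESeq2, 0 in limma voom). Over all genes, the share beside each such count in this paragraph was 16.5% unadjusted in edgeR. It was 0.634% for edgeR calls, 3.77% for DESeq2 and 0.117% for limma voom. The sums were 5332, 5038, 5076, 5509.9 and 5074 CPM in IRE1KO and 7231, 5385, 4045 and 3396 CPM in WT. Among WT libraries the sum was highest in library 1 and lowest in library 4, as for Col4a1, Col4a2, Col4a5 and Col7a1. Most of it was Acta2, at 4413, 3151, 2348 and 2053 CPM in WT libraries 1 to 4. Myh11, Cnn1, Tagln and Mcam had the same extremes. Rgs5 and Notch3 were instead highest in WT library 4, Cspg4 was highest in WT library 2, and Pdgfrb was lowest in WT library 2. Of 8 endothelial markers, 5 were tested and Pecam1 fell, at -1.99 ± 0.36 SE (edgeR adjusted p = 0.0497). Pecam1 was at 0.0532 to 0.289 CPM in IRE1KO, at or near the detection floor, and 0.556 to 0.938 CPM in WT. DESeq2 called it too, and limma voom called 0 endothelial markers. The sum was 9.69 to 12.8 CPM in IRE1KO and 10.4 to 30.2 CPM in WT, with Tie1 at 0. The osteoblast markers (3 unadjusted and 2 in DESeq2, 0 in edgeR and limma voom) summed to 924, 809, 961, 1126 and 914 CPM in IRE1KO and 782, 2082, 2047 and 1416 CPM in WT. Most of this sum was Spp1 (osteopontin), at 818, 715, 850.5, 1013 and 803 CPM in IRE1KO and 681, 1969, 1928 and 1287 CPM in WT, with a log2 fold change of -0.78 ± 0.26 SE (edgeR adjusted p = 0.205). The mineralisation markers were low: Ibsp (bone sialoprotein) was at 0.0964, 0.354, 0.905, 0.363 and 0.995 CPM in IRE1KO and 0.758, 2.14, 2.44 and 3.92 CPM in WT, with a log2 fold change of -2.06 ± 0.58 SE (edgeR adjusted p = 0.152), and Phex was at -1.29 ± 0.41 SE (edgeR adjusted p = 0.187). Dmp1, which did not pass edgeR's filter and was called by DESeq2 as Ibsp was, was at 0.0505 to 0.454 CPM in IRE1KO and 0.303 to 1.93 CPM in WT. Tendon and ligament markers summed to 725 to 1203 CPM in IRE1KO and 495 to 786 CPM in WT. Macrophage markers summed to 119 to 267 CPM in IRE1KO and 69.95 to 251 CPM in WT, with no edgeR call among 5 and 6 tested (2 and 0 unadjusted, 1 and 0 in DESeq2, 0 and 0 in limma voom). The part of these markers in the collagen results was not tested. In bulk libraries fewer cells of a type and less RNA per cell cannot be told apart.

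**Figure D5:**
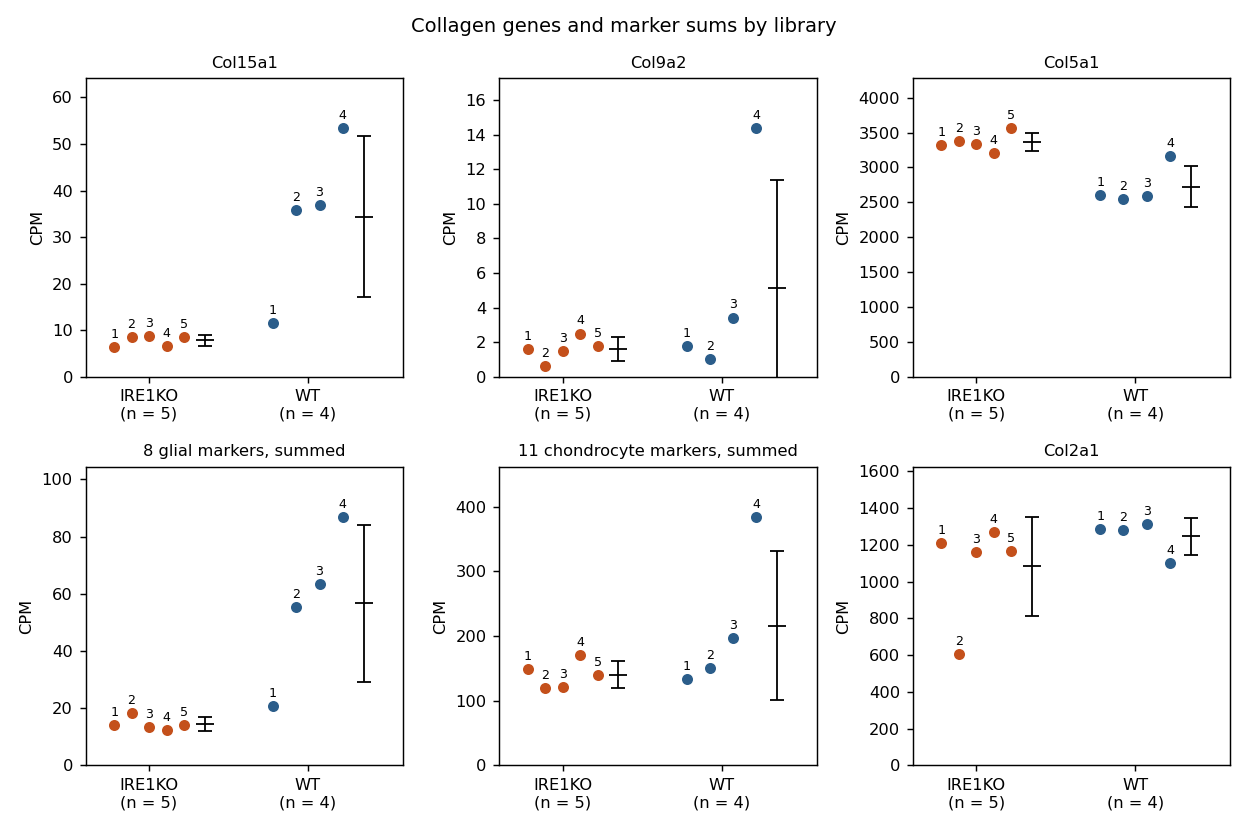
CPM (linear axes from 0) per library of Col15a1, Col9a2, Col5a1 and Col2a1 and of the summed Schwann cell and glial and the summed chondrocyte markers, IRE1KO in orange (n = 5) and WT in blue (n = 4), numbered, with mean ± SD to the right of each group (the lower bar of Col9a2 in WT runs below 0 and is not drawn there). Col15a1 and the glial sum are lowest in WT library 1 and highest in WT library 4 among WT libraries, and Col2a1 is low in IRE1KO library 2.

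Genes whose products make, trim, cross-link, bind or take up collagen were examined as further lists at the RNA level. None of the 52 tested members (of 56) passed in edgeR over all genes tested. At an unadjusted p under 0.05 there were 10 of them in edgeR, beside 16.5% of all genes. With limma voom none was called, and DESeq2 called 6, beside 3.77% of all genes: Creb3l1, Fkbp10, Fmod, Lox, Prelp and Sparc. Of 20 genes of chain modification and folding in the endoplasmic reticulum, 19 were tested, 12 had a log2 fold change above 0, and the list median was 0.021. Creb3l1, a membrane-bound transcription factor that drives Col1a1 in mouse osteoblasts, had the smallest p. It was at 139, 142, 130.4, 142 and 153 CPM in IRE1KO and 116, 107, 105 and 122 CPM in WT, with a log2 fold change of 0.35 ± 0.0678 SE (edgeR adjusted p = 0.0605). Of 8 genes of propeptide processing, 7 were tested with a median of 0.027. Adamts14, a procollagen protease, had a log2 fold change of 0.18 ± 0.13 SE (edgeR adjusted p = 0.515).

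Of 5 cross-linking genes, all tested, with a median of 0.029, Lox, which encodes lysyl oxidase, was at 2711, 2695, 2579.9, 2734 and 2566 CPM in IRE1KO and 2323, 1872, 1683 and 1508 CPM in WT. It was higher in every IRE1KO library than in any WT library, with a log2 fold change of 0.54 ± 0.12 SE (edgeR adjusted p = 0.0773), and among WT libraries it was highest in library 1 and lowest in library 4. Of 13 fibril-binding proteins, 12 were tested with a median of 0.054. The small proteoglycan gene Prelp was at 194 to 214 CPM in IRE1KO and 137 to 184 CPM in WT, at 0.34 ± 0.07797 SE (edgeR adjusted p = 0.0869). Of 10 collagen receptor and uptake genes, 9 were tested, 8 had a log2 fold change below 0, with a median of -0.11. The endocytic receptor gene Mrc2 was at -0.11 ± 0.0602 SE (edgeR adjusted p = 0.371), while Gp6, the platelet collagen receptor, was at 0.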

How the data were processed

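The authors deposited 1 table of raw counts per gene for the 9 libraries, made from directional polyA libraries, per the labels' protocols. The reads were processed with STAR and limma on mm10, per the submitters' processing notes; neither a counting tool nor its strand setting was stated in them. The members and lists were chosen with earlier results of these data known. CPM are the deposited counts scaled to each library's total count, and floors cover counting error only. Genes passing edgeR's filterByExpr (13712) were tested with edgeR 4.0.16 (TMM scaling, robust quasi-likelihood test, IRE1KO over WT, no covariate, 2-sided, Benjamini-Hochberg adjustment over all genes tested, threshold 0.05) in R 4.3.3, with limma 3.58.1 and DESeq2 1.42.0 as alternatives. Python 3.11.15, NumPy 2.4.6, pandas 2.3.3, SciPy 1.17.1 and matplotlib 3.10.9 were used for shares, ratios and figures. The test was checked on simulated data. The simulation gave both groups the same dispersion for each gene and held no deviating library, so it does not cover the spread of the WT libraries. Genes described in full were those called, the 2 highest and the 2 with the smallest p in each class and the chains of each ratio, 26 members in all. Col3a1, Col2a1, Col11a2, Col14a1 and Col4a5 fall outside that rule and were described in full after their values were seen. The untested Col13a1 also falls outside the rule, and its counts are given per library. Other members are given as ranges or counts, and each biosynthesis list names its called genes or else the member with the smallest p. Transcript lengths came from GENCODE M21, which lists 24957 of the 25860 gene identifiers and those of all 43 members. Alternatives were other scalings, filters, tools and denominators, each library left out in turn, a replicate block and the longest transcript as length. No 2 libraries of a group agreed within sampling noise (chi-square per degree of freedom 1.92 to 10.0 in IRE1KO and 15.4 to 112 in WT). Protein sequences were not analysed here.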

Additional observations from a re-analysis of the deposited data

Results flagged for a closer look

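Among 96 sets of values (38 tested collagen genes and 10 class shares, each in IRE1KO and in WT libraries), 12 held a library that stood far apart from the nearest other one of its group. For independent, normally distributed values chance flags about 1 in 20 such sets. The sets here share the same libraries, and class shares repeat gene values. The 12 of 96 can therefore not be set against that rate.

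WT library 4 was the library that stood apart for Col5a1 at 3157 CPM (next WT library 2609), Col11a2 at 11.13 CPM (2.75), Col14a1 at 355.9 CPM (83.7), Col9a3 at 36.01 CPM (10.01) and Col9a1 at 6.22 CPM (1.35), each the highest in WT, and for Col2a1 at 1099 CPM (1283), the lowest in WT. IRE1KO library 4 stood apart as the highest IRE1KO library for Col8a2 at 84.57 CPM (52.8), Col14a1 at 67.5 CPM (43.6), Col9a1 at 0.999 CPM (0.337), Col20a1 at 1.498 CPM (1.06) and Col25a1 at 0.953 CPM (0.404), the last 3 from few counts. IRE1KO library 2 was low for Col2a1, at 607.3 CPM (1162).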

How the results depend on the processing

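The count of collagen genes called was 1 with edgeR and all 9 libraries, and also 1 with DESeq2's size factors in edgeR, with a filter at a mean of 1 CPM and without robust dispersion. It was 0 with library size alone, with limma voom and with no filter, 2 with DESeq2, and 0 to 6 when each library was left out in turn. Leaving out both WT library 1 and WT library 4, chosen after seeing the data, gave 10. The labels do not state whether shared numbers pair the libraries, and correlations of deviations cannot settle it. These were 0.15, -0.20, -0.19 and 0.47 for numbers 1 to 4, against -0.54 to 0.51 between libraries of unlike number. IRE1KO library 5 has no partner. With the number as a replicate block in the other 8 libraries, 0 collagen genes were called, and Col15a1 was at a log2 fold change of -1.999 (edgeR adjusted p = 0.227). The same 8 libraries without the block, which is the fit that leaves out IRE1KO library 5, gave 0.

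The sign of the log2 fold change turned for Col8a2 with the block (0.094), with limma voom (0.10) and without both WT library 1 and WT library 4 (0.65). It turned without those libraries for Col9a3 (0.31), Col19a1 (0.15) and Col22a1 (0.056), with library size alone for Col20a1 (-0.015) and Col6a3 (-0.0033), in the 8 libraries without the block for Col6a3 (-0.014), and with the block for Col6a4 (-0.010). With each library left out in turn, values spanned both signs for Col5a3 (-0.087 to 0.37), Col27a1 (-0.089 to 0.52), Col4a5 (-0.25 to 0.078), Col8a2 (-0.56 to 0.62), Col16a1 (-0.27 to 0.012), Col9a3 (-1.06 to 0.28), Col20a1 (-0.14 to 0.18), Col22a1 (-0.19 to 0.13), Col6a3 (-0.053 to 0.16), Col6a1 (-0.052 to 0.42), Col6a2 (-0.0053 to 0.61), Col6a4 (-0.18 to 0.33) and Col23a1 (-0.65 to 0.080). The cause was not tested. The FACIT share of counts moved by more than the spread between libraries without both WT libraries, to 0.0496 percentage points (0.374% in IRE1KO and 0.325% in WT). Members with few counts, such as Col9a1 and Col13a1, are limited by depth.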

Other observations

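Col26a1, listed under the older symbol Emid2, is a collagen gene that the symbol rule did not take. It was at 0.723, 0.707, 0.266, 1.18 and 0.616 CPM in IRE1KO libraries 1 to 5 and 0.606, 0.417, 0.674 and 4.29 CPM in WT libraries 1 to 4. The groups overlapped, and WT library 4 was the highest, as it was for 23 of the 38 tested collagen genes, the type IX genes among them.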
